A study of Homo with 2 samples.

Results

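The genes followed here across single cells of human blastoids are 10 markers of the amnion: ISL1, GABRP, VTCN1, HEY1, BAMBI, WNT6, ANXA1, ANXA3, HOPX and GADD45G. They were chosen by symbol, with earlier results of these data known. All 10 were present in both count tables, out of 28363 genes in either table and 25556 in both. Blastoids are aggregates of pluripotent stem cells that take on the shape of a blastocyst. These were grown from KhES1, an established line of human embryonic stem cells, with no genetic change named in the labels. Both libraries belong to 1 group: per the labels, aggregation in microwells took 24 h and was followed by 4 days in hydrogel, with Y27632, an inhibitor of ROCK kinase, at 10 µM and serum at 10%. The labels do not say whether the libraries came from separate cultures, so the spread between them may be technical.

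The amnion is the thin epithelium that encloses the fluid around the embryo. In primates it forms from epiblast cells after implantation, and signalling by bone morphogenetic proteins (BMPs) is known to drive that step. Its early cells share transcription factors such as GATA3 and TFAP2A with trophectoderm, the outer layer of the blastocyst, so that genes such as ISL1, GABRP and VTCN1 are used to tell them apart. The members have different roles. ISL1 is a LIM homeodomain transcription factor, HEY1 a transcriptional repressor that NOTCH signalling can induce, and HOPX a homeodomain protein that does not bind DNA. BAMBI is a membrane pseudoreceptor that dampens BMP and TGF-beta signalling, and WNT6 is a secreted WNT ligand. GABRP is the pi subunit of the GABA-A receptor, and VTCN1 (B7-H4) is a surface protein of the B7 family that restrains T cells. ANXA1 and ANXA3 are annexins, which bind membrane phospholipids in the presence of calcium, and GADD45G is a stress-response protein that restrains the cell cycle.

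In the RefSeq annotation of GRCh38.p14 all 10 genes are protein-coding. ISL1 lies at chr5:51383448-51394730 and GABRP on the same chromosome at chr5:170782720-170814047. VTCN1 lies at chr1:117143587-117210927, WNT6 at chr2:218859805-218874233 and BAMBI at chr10:28677521-28682932. HOPX lies at chr4:56647998-56681706 and ANXA3 at chr4:78551770-78610447. ANXA1 lies at chr9:73151865-73170393, GADD45G at chr9:89605012-89606555, and HEY1 on chromosome 8. The deposited values are counts of unique molecular identifiers (UMIs) per gene and do not resolve exons.

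The tables held 38665475 UMIs in 1988 barcodes (library 1) and 45208758 UMIs in 2601 barcodes (library 2). Those with 1000 or more genes detected and no more than 20% of UMIs from mitochondrial genes were described, 937 and 1519 of them, with medians of 35059 and 25116 UMIs. No kept barcode was shared by both libraries. Levels are given in CPM, the UMIs of a gene scaled to 1000000 UMIs of the same cells. With 3' chemistry 1 molecule gives 1 UMI whatever the gene's length, so levels of different genes were set side by side on this scale.

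Over all kept barcodes the members spanned a wide range, and for 8 of them the ratio of library 1 to library 2 lay between 0.903 and 1.15. ANXA3 was the highest, at 444 CPM in library 1 and 471 in library 2, followed by GABRP at 414 and 402. ANXA1 had 275 and 286 CPM, VTCN1 229 and 234, and BAMBI 189 and 209. These 5 did not overlap between neighbours in the order. ISL1 followed at 77.8 and 67.6 CPM. HEY1 (40.9 and 39.3 CPM) and WNT6 (34.0 and 34.4 CPM) came next, and neither overlapped with its neighbours in that order.

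GADD45G and HOPX differed between the libraries. GADD45G had 25.5 CPM in library 1 and 14.1 in library 2, and HOPX 19.4 and 1.55, a ratio of 12.5, so that the order of these last 2 could not be told from their spread. Among 10316 genes at 10 CPM or more, 16 differed more than 2-fold between the libraries and 2 more than 10-fold. Most of the excess in library 1 lay in 1 barcode, which is described with cluster 5.

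The members were also present in barcodes that the filters left out. The sum of the 10 members was 1748 and 1758 CPM in kept barcodes and 1321 and 1457 CPM in barcodes with too few genes. In barcodes with too many mitochondrial UMIs it was 860 and 838 CPM. VTCN1 stood apart there, with 241 and 205 CPM in these high-mitochondrial barcodes, close to its level in kept ones, while ISL1 was at 33.0 and 31.8 CPM and BAMBI at 41.3 and 79.5 CPM. Whether these barcodes are damaged cells was not tested.

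For the comparisons between cells, 8 barcodes called as doublets were removed, 5 in library 1 and 3 in library 2. The rest were clustered on one random part of their UMIs, without the members, and levels by cluster were taken from the other part. In clusters 0, 1, 3 and 5 the markers of trophectoderm and amnion scored highest among the marker lists. These clusters were joined as a trophectoderm/amnion-like class of 1517 cells, 646 in library 1 and 871 in library 2. Cluster 7, with 143 cells (54 and 89), carried the markers of pluripotent epiblast. It also carried primitive streak markers, which summed to 463 and 530 CPM there against 5.46 and 3.92 CPM in the trophectoderm/amnion-like class. The naming markers do not separate amnion from trophectoderm. The leading genes of cluster 5 were placental, and its score was 10.1 for the trophectoderm and amnion markers and 9.13 for those of syncytiotrophoblast. Without cluster 5, the class differences described next stayed within 0.1 on the log2 scale for all members but HOPX and GADD45G, whose values without it are given with that cluster. Clusters 2, 4, 6, 8 and 9 stayed unnamed, though the markers of trophectoderm and amnion scored highest in each of them as well. That score was 9.11 in cluster 6, against 7.13 in cluster 3. Cluster 2 was left out because its leading genes included TP63, a marker of another list, and the rest because they were shallow. Cluster 9 had 8 cells, all of library 2.

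All 10 members were higher in the trophectoderm/amnion-like class than in the epiblast-like class, by edgeR's quasi-likelihood test with adjusted p under 0.05. Of the 13099 genes tested, 23.7% were higher at that threshold. The members' median log2 difference was 2.56, against 0.01 over all genes tested. As the members were chosen with earlier results of these data known, these figures describe them and are no independent test. HOPX passed the filter on low counts only through 1 cell of the class, and without that cell 9 members were tested, all of them higher.

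GABRP and VTCN1 showed the largest differences with both libraries, while in library 2 alone HEY1 had the largest, at 4.85 on the log2 scale. GABRP had 484 and 478 CPM in the trophectoderm/amnion-like class and 22.7 in each library in the epiblast-like class. The ratio of the means was 21.2, and the fitted log2 difference was 4.49 (SE 0.19, edgeR adjusted p = 4.16e-42). VTCN1 had 260 and 273 CPM against 11.9 and 14.3, a log2 difference of 4.40 (SE 0.20). For these genes the epiblast-like levels lay far below every value of the other class, with little spread between the libraries.

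HEY1 was close behind, at 45.4 and 44.9 CPM against 3.98 and 1.59, a log2 difference of 4.19 (SE 0.31). Its epiblast-like level rests on 11 UMIs in both libraries together. The annexins were intermediate. ANXA3 had 501 and 526 CPM against 87.5 and 80.4, a log2 difference of 2.70 (SE 0.17), and ANXA1 had 304 and 332 CPM against 75.0 and 52.9, a log2 difference of 2.42 (SE 0.16). Over the epiblast-like class as a whole both annexins thus lay above GABRP. However, 87.2% of ANXA1, 84.0% of ANXA3 and 80.4% of GABRP UMIs of that class lay in a single sub-cluster, described below. Outside that sub-cluster ANXA1 was not above GABRP in library 2.

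ISL1, BAMBI and WNT6 differed least. ISL1 had 78.2 and 65.3 CPM against 31.8 and 39.0, a log2 difference of 1.08 (SE 0.16, edgeR adjusted p = 1.57e-08). BAMBI had 195 and 218 CPM against 111 and 103, a log2 difference of 1.04 (SE 0.14), and WNT6 35.6 and 37.6 CPM against 12.5 and 22.3, a log2 difference of 1.11 (SE 0.20). The groups did not overlap between libraries for any of these genes. These sizes moved with the grouping of the cells. Under another random split of the UMIs, 110 cells formed the epiblast-like class, from a cluster led by primitive streak genes that did not pass the naming rule. There the log2 differences were 2.94 for ISL1, 2.81 for WNT6 and 1.31 for BAMBI, and those of ANXA1, ANXA3 and VTCN1 were 3.73, 3.48 and 5.04. HEY1 was at 4.67 and GADD45G at 2.51, and GABRP, at 3.97, was no longer among the largest 2. GADD45G had 30.2 and 15.8 CPM against 5.11 and 5.97, a log2 difference of 2.03 (SE 0.31). HOPX had 24.8 and 1.90 CPM against 1.14 and 1.19.

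**Figure D1:**
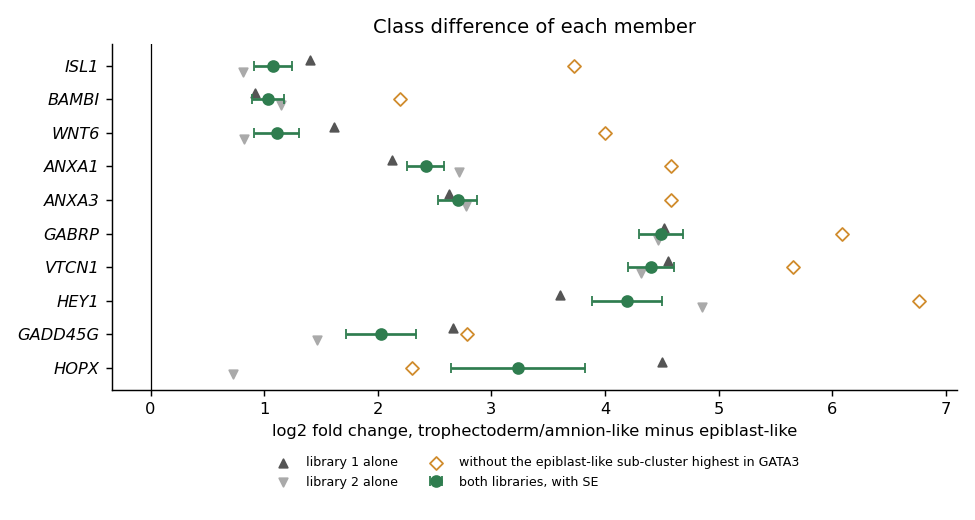
Fitted log2 fold change of each member between the trophectoderm/amnion-like and the epiblast-like class, with its SE (bars), in each library alone (triangles) and with the sub-cluster highest in GATA3 left out of the epiblast-like class (open diamonds). With both libraries GABRP, VTCN1 and HEY1 lie above 4, and ISL1, BAMBI and WNT6 near 1 until the sub-cluster is left out. HEY1 is at 3.61 in library 1 alone, and HOPX ranges from 0.72 in library 2 to 4.50 in library 1.

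The members' epiblast-like UMIs were not spread evenly over that class. It was divided into 4 sub-clusters of 40, 40, 42 and 21 cells, again without the members. Sub-cluster 3, with 22 cells of library 1 and 20 of library 2, was the highest in GATA3, at 110 and 176 CPM against 16.3 and 5.17 CPM in the other epiblast-like cells. It kept the pluripotency factor POU5F1 at 509 and 624 CPM, close to the 466 and 710 CPM of the others, and far above the 35.4 and 34.2 CPM of the trophectoderm/amnion-like class. The primitive streak factor TBXT was at 5.56 and 6.21 CPM there and at 123 and 96.3 CPM in the others. These values describe the grouping and were not tested. This sub-cluster held 43.6% of the class's UMIs but 92.3% of its WNT6, 90.9% of its ISL1 and of its HEY1, 87.2% of its ANXA1, 84.0% of its ANXA3 and 80.4% of its GABRP UMIs. For VTCN1, BAMBI and GADD45G the shares were 75.4%, 74.3% and 66.7%, and for HOPX none of 5.

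Between sub-cluster 3 and the other epiblast-like cells, 8 of 10 members were higher by edgeR at adjusted p under 0.05, where 8.14% of 12913 genes tested were higher. ISL1 had 55.6 and 93.1 CPM in the sub-cluster against 6.97 and 5.17 in the other epiblast-like cells, a log2 difference of 3.80 (SE 0.38). WNT6 had 22.3 and 53.8 CPM against 2.32 and 2.59, a log2 difference of 4.06 (SE 0.50). BAMBI, already at 63.9 and 40.1 CPM in the other epiblast-like cells, had 157 and 205 CPM in the sub-cluster, a log2 difference of 1.99 (SE 0.23). Each of these genes was higher in the sub-cluster in both libraries.

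ANXA1 had 118 and 129 CPM in the sub-cluster against 30.2 and 5.17, a log2 difference of 3.20 (SE 0.35). ANXA3 had 150 and 170 CPM against 22.1 and 24.6, a log2 difference of 2.89 (SE 0.25). GABRP had 40.1 and 43.5 CPM against 4.64 and 9.70, a log2 difference of 2.54 (SE 0.38), and VTCN1 23.4 and 22.8 CPM against 0 and 9.05, a log2 difference of 2.11 (SE 0.53). HEY1 had 10 UMIs in the sub-cluster and 1 in the other epiblast-like cells, a ratio of rates of 12.9 with an exact 95% interval of 1.84 to 560. That interval covers counting error only. GADD45G was not called, at 4.45 and 12.4 CPM against 5.81 and 1.94 (edgeR adjusted p = 0.22).

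Set against the trophectoderm/amnion-like class, the sub-cluster had some members at the level of that class and others far below it. ISL1, WNT6 and BAMBI reached 104%, 104% and 87.4% of the class's mean level, and their values in the libraries overlapped with it. Their log2 differences, class minus sub-cluster, were -0.04 (SE 0.20), -0.04 (SE 0.24) and 0.21 (SE 0.18), with edgeR adjusted p of 0.92, 0.93 and 0.43. The libraries differed in this: ISL1 was at 71.2% of the class's level in library 1 and 143% in library 2, and WNT6 at 62.5% and 143%. ANXA1 and ANXA3 reached 38.9% and 31.1%. HEY1, GABRP and VTCN1 reached 12.1%, 8.68% and 8.65%, with log2 differences of 3.08 (SE 0.37), 3.55 (SE 0.22) and 3.55 (SE 0.27). The level of HEY1 rests on 7 UMIs in library 1 (17.2%) and 3 in library 2 (6.92%). In all, 7 members were higher in the class than in the sub-cluster, where 13.9% of genes were higher. Without the cell that held most HOPX UMIs this number was 5, as HOPX was no longer tested and GADD45G was no longer called (edgeR adjusted p = 0.12).

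With sub-cluster 3 left out of the epiblast-like class, the class differences of ISL1, WNT6 and BAMBI were 3.73, 3.99 and 2.20 on the log2 scale, against 1.08, 1.11 and 1.04 with it. Those of ANXA1 and ANXA3 were both 4.58, and those of GABRP and VTCN1 were 6.08 and 5.66. That of HEY1, at 6.76, rests on 1 UMI in the remaining epiblast-like cells. The sub-cluster's cells were also deeper, with a median of 72172 UMIs against 42106 to 51655 in the other 3 sub-clusters, after called doublets had been removed. Barcodes that mix 2 cell types were not tested for beyond that step.

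**Figure D2:**
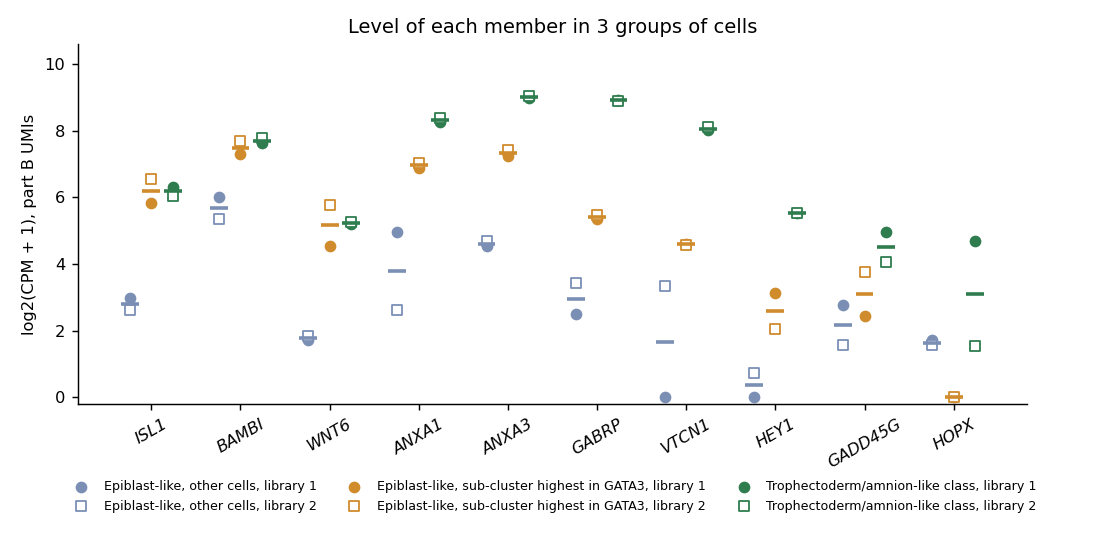
Level of each member as log2(CPM + 1) in the other epiblast-like cells (blue), the epiblast-like sub-cluster highest in GATA3 (orange) and the trophectoderm/amnion-like class (green). Filled circles are library 1, open squares library 2, and lines their means. ISL1, BAMBI and WNT6 overlap in the orange and green groups, and GABRP, VTCN1 and HEY1 lie at 8.65% to 12.1% of the green level.

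After each cell was thinned to 5000 UMIs, 87.8% of the trophectoderm/amnion-like cells had an ANXA3 UMI in library 1 (exact 95% interval 85.0 to 90.2) and 87.7% in library 2 (85.3 to 89.8). In epiblast-like cells these shares were 26.9% (15.6 to 41.0) and 23.9% (15.4 to 34.1). GABRP was detected in 82.6% and 84.2% of trophectoderm/amnion-like cells and in 9.62% and 10.2% of epiblast-like cells. ISL1 was detected in 29.6% (26.1 to 33.3) and 26.3% (23.4 to 29.4) against 15.4% (6.88 to 28.1) and 6.82% (2.54 to 14.3). The intervals of the classes thus overlapped for ISL1 in library 1 and stood apart for GABRP and ANXA3 in both libraries.

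The shares rose with depth. Without thinning, at median depths of 38961 and 33670 UMIs per cell, 72.0% ± 4.4 (SD, n = 2) of trophectoderm/amnion-like cells had an ISL1 UMI, and 96.9% ± 0.3 (SD, n = 2) had a GABRP UMI. In the deeper epiblast-like cells, with medians of 55985 and 48778 UMIs, these shares were 33.1% ± 5.5 and 39.1% ± 0.3 (SD, n = 2). HOPX was found in 3 of 638 thinned trophectoderm/amnion-like cells of library 1 (0.470%) and 5 of 843 of library 2 (0.593%). It was found in 0 of 52 and 0 of 88 epiblast-like cells, for which the exact intervals reach 6.85% and 4.11%, so no difference in HOPX detection could be seen at this depth. Unthinned, HOPX was found in 1.08% and 1.84% of trophectoderm/amnion-like cells and in 5.56% and 3.37% of the deeper epiblast-like cells, the latter being 3 cells in each library.

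**Figure D3:**
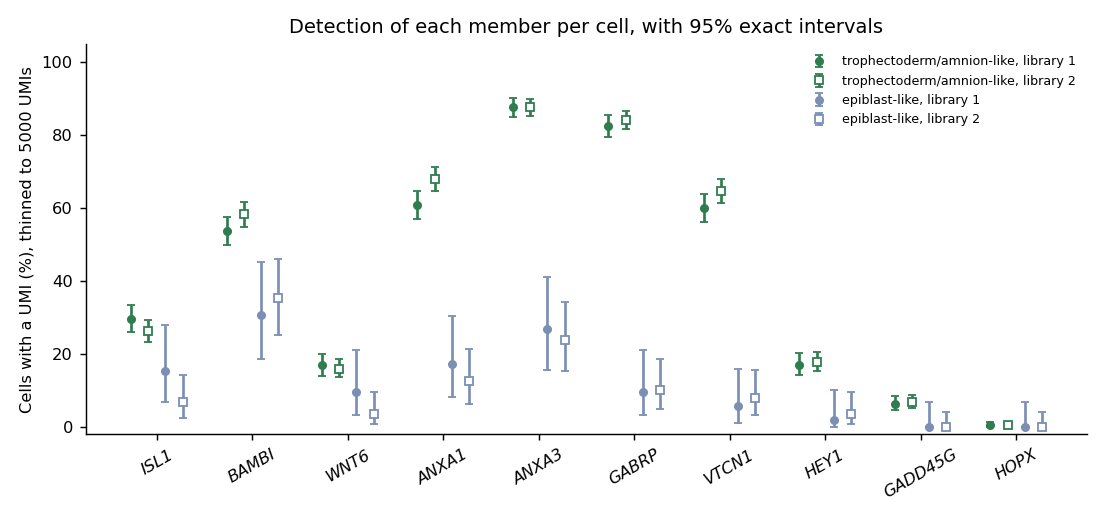
Percent of cells with at least 1 UMI of each member after thinning each cell to 5000 UMIs, in the trophectoderm/amnion-like (green) and epiblast-like (blue) classes of library 1 (filled) and library 2 (open), with exact 95% intervals. ANXA3 and GABRP lie above 80% in the green class, and HOPX lies below 1%.

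A trophectoderm/amnion-like cell had a median of 4 of the 10 members at 5000 UMIs in each library, and an epiblast-like cell a median of 1. None of the members was detected in 0.157% and 0.356% of trophectoderm/amnion-like cells, and in 48.1% and 45.5% of epiblast-like cells. ISL1, GABRP and VTCN1 were detected together in 14.3% (11.6 to 17.2) and 15.5% (13.2 to 18.2) of trophectoderm/amnion-like cells. The same 3 genes met in 0 of 52 epiblast-like cells of library 1 and in 1 of 88 of library 2.

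Within the trophectoderm/amnion-like class the members were only weakly related from cell to cell. Over 45 pairs, Pearson's r across thinned cells ran from -0.10 to 0.32 with a median of -0.01, and 3 pairs were above 0.1 in both libraries. ANXA1 and ANXA3 had r = 0.20 in each library, over 638 and 843 cells. ISL1 and BAMBI had 0.15 and 0.14, and GABRP and ANXA3 had 0.14 and 0.12. The highest value, 0.32 for HOPX and GADD45G in library 1, rested on the 1 cell in which both were found, and was 0.04 in library 2. At counts this sparse, low values say little.

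The clusters of the class differed in their members. Each cluster was compared with the mean of the other 3 by edgeR, over 14161 genes, at adjusted p under 0.05. Cluster 1 was the largest, with 654 cells, and was low in the proliferation marker MKI67, at 14.7 and 14.2 CPM, against 175 CPM in each library in cluster 3. In cluster 1, 5 members were called higher and none lower, where 15.1% of genes were higher and 13% lower. At an unadjusted p under 0.05, 6 were higher and still 0 lower, but the share of all genes at that threshold was not counted. VTCN1 had 363 and 381 CPM there, against 190 and 208 in cluster 0 and 189 and 211 in cluster 3. Its log2 difference was 1.17 (SE 0.09, edgeR adjusted p = 3.12e-12), and the values of cluster 1 lay above all the others. WNT6, ISL1, GABRP and ANXA1 were higher by 0.78, 0.73, 0.40 and 0.33 on the log2 scale. The call of ANXA1 was lost when all UMIs were used (0.28, edgeR adjusted p = 0.065). The mean of the other 3 clusters gives the small cluster 5 the same weight as the rest, so a call does not place cluster 1 above each of them. ISL1 had a mean of 77.9 CPM in cluster 1 and 93.3 CPM in cluster 0, and ANXA1 had 349 CPM in both. Without the cell holding most HOPX UMIs, described with cluster 5, GADD45G was called higher too, at 0.66 (edgeR adjusted p = 0.0038).

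Cluster 0, with 283 cells, was highest in BAMBI among the 4 clusters, at 335 and 310 CPM, a log2 difference of 1.12 (SE 0.10). ISL1 was at 110 and 76.9 CPM, a log2 difference of 1.02 (SE 0.14). In all, 3 members were higher and 1 lower in cluster 0, where 6.54% of genes were higher and 8.34% lower. The other calls were ANXA1, higher by 0.31, and GADD45G at -1.22. Without the cell holding most HOPX UMIs both missed the threshold, ANXA1 with its value nearly the same, at 0.29 (edgeR adjusted p = 0.055), and GADD45G at -0.58 (edgeR adjusted p = 0.11). With all UMIs GADD45G was not called either (-0.90, edgeR adjusted p = 0.090), and WNT6 was called higher (0.53, edgeR adjusted p = 0.020). Cluster 3, with 504 cells, was the one high in MKI67. There 2 members were lower, HEY1 at -0.41 and GADD45G at -2.25, and none higher, where 11.3% of genes were lower and 15.4% higher. Without the same cell GADD45G was at -1.54 and still called. At an unadjusted p under 0.05, 1 was higher, again without a share of all genes to set beside it.

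In cluster 5 all 10 members were called. Among the UMIs tested, HOPX had 395 there and 0, 4 and 1 in clusters 0, 1 and 3, so it could hardly be called elsewhere. Cluster 5 held 76 cells, 23 of library 1 and 53 of library 2. Its leading genes included PGF, a placental growth factor, and GCM1, the transcription factor that drives trophoblast fusion into syncytiotrophoblast. There 7 members were lower and 3 higher, where 16.3% of genes were lower and 19.3% higher. ISL1 was at 17.1 and 17.9 CPM, a log2 difference of -2.08 (SE 0.24), and lay below every other cluster of the class in both libraries. BAMBI was at 68.4 and 94.7 CPM, a log2 difference of -1.43 (SE 0.14), and WNT6 at 10.1 and 18.8 CPM, a difference of -1.28 (SE 0.25). VTCN1, GABRP, ANXA1 and ANXA3 were lower too, at -1.03, -0.58, -0.52 and -0.29. The call of ANXA3 was lost without the cell holding most HOPX UMIs (-0.25, edgeR adjusted p = 0.062) and with all UMIs (-0.30, edgeR adjusted p = 0.071).

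The members that were higher in cluster 5 were HOPX, GADD45G and HEY1. HEY1 was at 62.3 and 72.5 CPM, a log2 difference of 0.68 (SE 0.16). HOPX was at 369 and 23.9 CPM, and GADD45G at 246 and 40.9 CPM. Markers of syncytiotrophoblast summed to 437 and 55.4 CPM in this cluster and to between 3.47 and 9.89 CPM in clusters 0, 1 and 3, with all 4 measured markers at 10 CPM or more in cluster 5. Without the 1 cell described next, the sum in library 1 was 36.7 CPM, and 1 of the 4 markers was at 10 CPM or more. Outside the class, the sums were 35.4 and 29.9 CPM in cluster 2 and 10.3 and 71.8 CPM in cluster 6. They were 19.9 and 13.5 CPM in the epiblast-like class, 0 and 11.4 CPM in cluster 4, and 0 in each library in cluster 8. The part of these markers in the members' values was not tested.

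**Figure D4:**
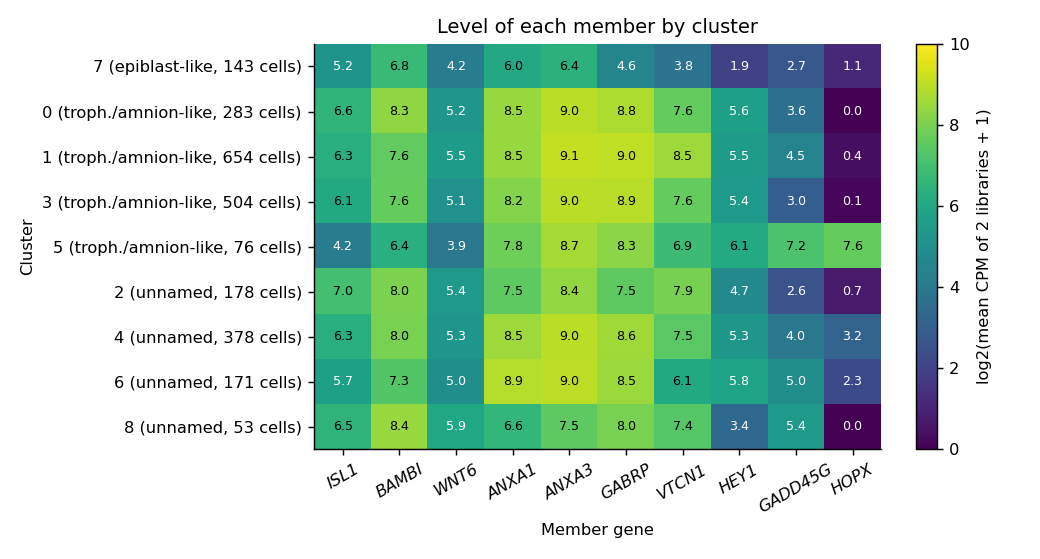
Level of each member (columns) as log2(mean CPM of both libraries + 1) in the 9 clusters with cells in both libraries (rows), which leaves out cluster 9. Among these, HOPX and GADD45G are highest in cluster 5, where ISL1 and WNT6 are at their lowest, and VTCN1 is highest in cluster 1.

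A single cell of library 1, in cluster 5, held most of the HOPX signal. It had 639 of the 727 HOPX UMIs in that library's kept barcodes (87.9%) and 449 of the 954 GADD45G UMIs (47.1%). The same cell had 0 UMIs of ISL1, GABRP and WNT6, 1 of VTCN1 and 1 of BAMBI, 3 of ANXA1, 7 of ANXA3 and 14 of HEY1. It had 336 UMIs of CGA, the alpha subunit of chorionic gonadotropin, 419 of the placental aromatase CYP19A1, 119 of the fusogen ERVW-1, 89 of GCM1 and 839 of PGF. For ERVW-1 these were 96.7% of the library's UMIs. The cell had 193688 UMIs, 8465 detected genes and 2.75% mitochondrial UMIs, was not called a doublet, and 8 of 2448 cells were deeper.

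Without this cell HOPX was at 2.36 CPM in library 1 and GADD45G at 13.5, and the ratios of library 1 to library 2 were 1.53 and 0.960. The remaining HOPX UMIs lay mostly in cluster 5. In library 2 these were 50 of 68, in 9 of its 53 cells, and in library 1 they were 75 of 87, all in 1 of its 22 remaining cells. Without the cell, the log2 difference of cluster 5 was 7.82 for HOPX, against 10.28 with it, and 1.46 for GADD45G, against 3.47. The fitted HOPX values depend on the prior count, since the other clusters of the class held few HOPX UMIs.

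The class difference of HOPX therefore rested on cluster 5. Its log2 value was 4.50 in library 1 alone and 0.72 in library 2 alone, with no test for either. Without cluster 5 it was -2.57 and was not called (edgeR adjusted p = 0.083), and DESeq2's Wald test did not call it with all cells (adjusted p = 0.14). Over the alternatives that gave HOPX a test, adjusted p ran from 1.89e-09 to 0.14. GADD45G kept its class difference without the cell, at 1.54 (edgeR adjusted p = 4.25e-05), and without cluster 5, at 1.42 (edgeR adjusted p = 0.011).

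**Figure D5:**
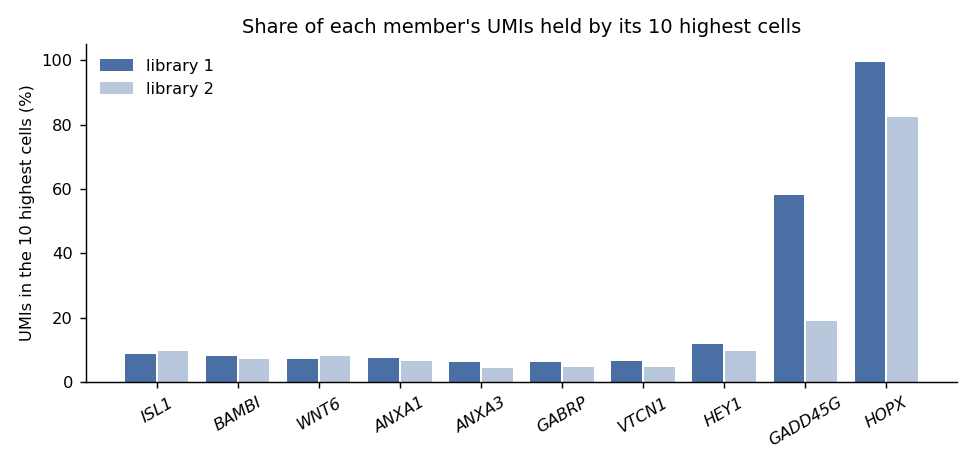
Percent of each member's UMIs held by its 10 highest kept barcodes in library 1 (dark) and library 2 (light). The 10 highest barcodes held 99.4% and 82.4% of HOPX and 58.0% and 18.9% of GADD45G, and at most 11.9% of any other member.

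The unnamed clusters held the members too. Cluster 2, with 178 cells and TP63 among its leading genes, had the highest mean ISL1 of the 9 clusters with cells in both libraries, at 122 and 133 CPM. Compared with the trophectoderm/amnion-like class by edgeR, ISL1 was higher by 0.74 on the log2 scale (SE 0.14) and 6 members were lower, where 7.11% of 13099 genes were higher and 8.63% lower. GABRP was at 173 and 194 CPM, a log2 difference of -1.47 (SE 0.15), ANXA1 at -0.88, ANXA3 at -0.71 and HEY1 at -0.91. VTCN1 at 254 and 232 CPM, BAMBI at 251 and 270 and WNT6 at 42.1 and 41.6 were not called. HOPX and GADD45G (-2.26) were lower as well. Without the single HOPX-rich cell HOPX was not tested, and GADD45G was at -1.72 and still called.

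Clusters 4, 6 and 8 were shallow, with medians of 2499 to 3853 UMIs per cell. Cluster 4, of 27 cells of library 1 and 351 of library 2, had none of the members called against the class by edgeR, where 0.282% of genes were called. At an unadjusted p under 0.05 the number was 1, with the share of all genes at that threshold not counted. The members' log2 differences in cluster 4 ran from -0.71 for HOPX to 0.38 for ISL1. In cluster 6, whose median share of mitochondrial UMIs was 0.252%, VTCN1 was at 78.6 and 52.9 CPM, a log2 difference of -1.81 (SE 0.26), and ANXA1 at 383 and 563 CPM, a difference of 0.76 (SE 0.17). These were 2 calls, where 31.6% of genes were called. Without the HOPX-rich cell GADD45G was called higher as well, at 1.18 (edgeR adjusted p = 0.038). In cluster 8, of 53 cells, ANXA1, ANXA3 and GABRP were lower, at -2.08, -1.77 and -1.26, where 7.82% of genes were called.

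Other genes of the members' families and pathways were counted in the same comparison, from lists also chosen with earlier results of these data known. A rise or fall here is a difference between the classes. The epiblast-like class also carried primitive streak markers and held the sub-cluster highest in GATA3. Of 10 other amnion genes tested, leaving out the naming markers, 8 were higher in the trophectoderm/amnion-like class and 2 lower, where 23.7% of all genes were higher and 23.8% lower. ITGB6, an integrin subunit, was at a mean of 3.21 CPM in the epiblast-like class and at 97.2 and 92.7 CPM in the other (log2 4.93), IGFBP5 rose from 7.64 to 153 CPM (4.56) and IGFBP3 from 48.0 to 731 CPM (4.04), both binding proteins of insulin-like growth factors. BMP4 and DLX5 were the lower ones. Genes of the trophoblast were higher as well, 7 of 10 tested with 1 lower. NR2F2 rose by 3.77 and LRP2 by 3.65 on the log2 scale. CDX2, a factor of trophectoderm, was at 36.5 CPM in the epiblast-like class and 1.61 CPM in the trophectoderm/amnion-like class (log2 -4.36).

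Among relatives of the members, most BMP targets and WNT ligands tested were lower, while other lists were mixed. The shares of all genes, 23.7% higher and 23.8% lower, apply to each count below. Of 10 BMP targets tested, a set that shares DLX5 and BMP4 with the amnion genes, 7 were lower and 1 higher, while BAMBI, itself a BMP-induced gene, was higher. ID3, a target that blocks basic helix-loop-helix factors, fell from 373 to 82.2 CPM (log2 -2.10), MSX1 fell from 80.5 to 5.35 CPM (-3.84), and SMAD9 rose by 1.56. Of 6 other WNT ligands tested, WNT4 alone was higher, by 1.98, and 5 were lower. Among these, WNT8A, WNT3A and WNT3 had 39.4, 16.6 and 37.7 CPM in epiblast-like cells and under 1 CPM in the other class. WNT6 and WNT4 were thus the WNT ligands that were higher among those tested.

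Of 9 NOTCH pathway genes tested, 3 were higher and 4 lower. The ligand DLL1 was lower at -2.26, the receptor NOTCH1 at -1.89 and the effector HES1 at -1.46, while HEY2, the closest relative of HEY1 in the list, rose by 0.66. Among GABA-A receptor subunits besides GABRP, GABRA2 rose from 1.17 to 14.8 CPM (log2 3.70) and GABRG3 by 2.84, and GABRB2 fell from 175 to 7.94 CPM (log2 -4.36). Of 7 other annexins tested 3 were higher, ANXA2 by 1.44, ANXA4 by 1.05 and ANXA11 by 0.93, and 4 were not called. These differences were smaller than the 2.42 and 2.70 of ANXA1 and ANXA3, which was not tested.

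The remaining lists had few genes above the filter. CD276 was the only B7 relative tested and was not called, at 33.6 CPM against 37.5. The LIM homeodomain gene LHX1 fell from 23.7 to 0.739 CPM (log2 -4.85), opposite to ISL1. GADD45A and GADD45B were not called, and CDKN1A, an inhibitor of the cell cycle, was lower at -1.90. The 1 syncytiotrophoblast gene tested, CYP19A1, rose by 4.36, and 57.3% of its UMIs in library 1 lay in the HOPX-rich cell. Of 3 surface ectoderm genes tested 2 were higher, TFAP2B and CDH3, and 1 lower, WNT3, and no germ cell gene outside the naming markers was left to count. Of 10 genes of G2 and mitosis, 9 were lower in the trophectoderm/amnion-like class, with CENPE at -1.62 and BUB1 at -1.07. Fewer dividing cells and less of these transcripts per cell cannot be told apart here.

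Genes with the most similar pattern across 9 clusters were listed for each member, by the lower of the 2 libraries' Pearson r of log2(CPM + 1), over 12790 genes. The clusters share their libraries and differ in depth, so these values are descriptions. GABRP was most like CAPN2 (0.96), LUM (0.95) and EPAS1 (0.95), and VTCN1 most like LRP2 (0.95). ISL1 was most like EPHB2 (0.92) and WASF1 (0.88), and WNT6 had the same pair at its head, WASF1 at 0.91 and EPHB2 at 0.90. BAMBI was most like ISL1-DT (0.93), a transcript named for its place beside ISL1, ANXA1 like SDCBP (0.92) and ANXA3 like CALB2 (0.90). HEY1 was most like LINC00379 (0.96), HOPX like LYN (0.93) and GADD45G like SQSTM1 (0.92).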

How the data were processed

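Per the labels' protocols, cells of day 4 blastoids were loaded for droplet-based 3' sequencing. The authors deposited raw UMI counts per gene and barcode, 1 table per library. The submitters' processing notes name Cell Ranger 9.0.0 and GRCh38. Filters applied before deposit are not given in the sources used here.

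Scrublet, run in scanpy 1.11.5 on each library, called the doublets. Each UMI was assigned at random to part A, clustered by the Leiden method at resolution 0.5, or to part B, summed per library and class or cluster. The genes of all lists stayed out of the clustering. Clusters were named from marker lists, by a scoring rule written after the data were seen. The test was the quasi-likelihood test of edgeR 4.0.16, with TMM scaling, the filterByExpr filter, the library as a blocking factor and p-values adjusted after Benjamini and Hochberg over all genes tested. The block is given by the design, since every class comes from the same 2 libraries. SEs are the fold change divided by the root of the F statistic. The libraries are the replicates. As the block removes the difference shared by all groups, p-values do not measure that difference. They rest on how the differences between groups varied between the 2 libraries, counting error included. That spread was estimated over all groups of a fit and draws on the other genes tested. Alternatives included DESeq2 1.42.0. Simulated counts with known changes were used to test that step. Comparisons of sub-cluster 3 and of the unnamed clusters 2, 4, 6 and 8 were added after the data were seen. The genes of the lists that are named have the largest fold among those called at 10 CPM or more, up to 3 per list; others named were chosen after their values were seen. The members and lists were chosen with earlier results of these data known. Thinned shares leave out cells under 5000 UMIs, 8 of 646 and 28 of 871 trophectoderm/amnion-like cells and 2 of 54 and 1 of 89 epiblast-like cells. Over all cells, unnamed clusters included, 110 of library 1 (11.8%) and 381 of library 2 (25.1%) were under 5000 UMIs. Intervals and ratios of UMIs cover counting error only. Not every gene of the lists is reported here.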

Additional observations from a re-analysis of the deposited data

How the results depend on the processing

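Of the 10 members, 9 were called higher in the trophectoderm/amnion-like class under each of the 14 tested alternatives, HOPX being the exception. The sizes moved by over 1.5 times in some of these: HEY1 was at 3.55 with all UMIs, 3.35 with called doublets kept and 3.49 at the stricter mitochondrial limit, against 4.19, and with called doublets kept GABRP was at 3.81 and GADD45G at 1.42, against 4.49 and 2.03. With all UMIs, 19 member calls were made in the clusters of the class, against 21. The number of members higher was 9 or 10, and the number of genes called ran from 4392 (DESeq2's Wald test) to 7184 (all UMIs in place of part B), against 6221. Without the replicate block, 6236 genes and all 10 members were called, and 19 of 21 member calls stood in the clusters of the class. The block changed the calls of ANXA1 in cluster 0 (edgeR adjusted p = 0.099) and ANXA3 in cluster 5 (0.063), and that of HOPX between the class and sub-cluster 3 (0.051). HOPX was at -2.57 without the cluster highest in GCM1, and fell below the filter in 6 alternatives. DESeq2's size factors moved the median of all genes from 0.01 to -0.09 on the log2 scale, and no member changed direction. Leaving out library 1 or 2 gives values with no test: over the members they ran from 0.72 to 4.85 and from 0.92 to 4.55, all above 0. Each share of cells moved with the depth of thinning: for ISL1, 13.3% at 2000 UMIs, 27.98% at 5000 and 72.0% unthinned. The promoter and protein descriptions that were planned were not run, as they need sequences not used here.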
